A study of Rattus norvegicus with 6 samples.

Results

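The 37 genes described here encode parts of the lysosome and of autophagy, measured in the renal cortex of rats given ethylenediamine dihydrochloride or water. They were listed by name for their place in the lysosome or in autophagy, and are 37 of the 11530 genes tested. Each gene is represented by its brightest probe over the 6 arrays. Of the 37, 23 encode hydrolases or the small proteins that help them, 6 encode proteins of the lysosomal membrane, and 8 belong to autophagy, counting its transcription factor Tfeb. All 37 were measured and were well above background on all 6 arrays.

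Lysosomes are acidic compartments in which hydrolases break down proteins, lipids and sugar chains. Cells of the proximal tubule, which make up much of the cortex, take up filtered protein by endocytosis and degrade it there. Autophagy wraps worn-out parts of the cell in a membrane and delivers them to the same compartment, and the transcription factor TFEB, known mainly from human and mouse cells, switches on many genes of both.

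The treated group was 3 male Sprague-Dawley (Crl:CD(SD)) rats that received ethylenediamine dihydrochloride, a small diamine salt, at 500 mg/kg/day for 4 weeks. The comparison group was 3 male rats of the same strain that received water for 4 weeks. Both groups were bought at 5 weeks of age and kept on a basal diet. Total RNA of each animal's cortex was hybridised to its own 1-colour array, so the spread between arrays includes the spread between animals. The tissue is whole cortex, in which fewer cells of a type and less RNA per cell cannot be told apart.

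Between 35691 and 40843 probes per array were well above background. Ethylenediamine replicate 1 had the fewest and stood apart on the second principal component, at -27.64 against 0.49 to 9.29 on the other arrays. Ethylenediamine replicate 1 and the 3 water arrays shared slide 1, while ethylenediamine replicates 2 and 3 were on slide 2, so that the treatment can be compared within a slide only through replicate 1. All 14 proximal tubule markers examined, which define most of the cortex, were well above background on all 6 arrays.

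Promoters of members with a TFEB-type E-box are shown first, since TFEB acts through such sites. A promoter here is the stretch from 250 bases before to 50 bases after a gene's start in RefSeq (build GRCr8, 5′ to 3′ on the gene's strand), and 31 of the 37 members were in that table. Capitals mark TCACGTG and its reverse complement, the 7-base core of the TFEB site, each containing the shorter E-box CACGTG. The 5 members with a match are shown. They are Ctsd at chr1:206968772-206969071 (minus strand), Gaa at chr10:105028105-105028404 (plus), Glb1 at chr8:122963468-122963767 (plus), Lamp1 at chr16:83075014-83075313 (minus) and Mcoln1 at chr12:6358008-6358307 (plus).
Ctsd: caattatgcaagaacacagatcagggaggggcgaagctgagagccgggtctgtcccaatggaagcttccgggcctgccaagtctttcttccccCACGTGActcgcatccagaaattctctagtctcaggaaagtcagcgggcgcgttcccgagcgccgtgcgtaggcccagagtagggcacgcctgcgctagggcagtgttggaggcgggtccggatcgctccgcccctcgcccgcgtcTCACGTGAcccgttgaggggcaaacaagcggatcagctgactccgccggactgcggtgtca
Gaa: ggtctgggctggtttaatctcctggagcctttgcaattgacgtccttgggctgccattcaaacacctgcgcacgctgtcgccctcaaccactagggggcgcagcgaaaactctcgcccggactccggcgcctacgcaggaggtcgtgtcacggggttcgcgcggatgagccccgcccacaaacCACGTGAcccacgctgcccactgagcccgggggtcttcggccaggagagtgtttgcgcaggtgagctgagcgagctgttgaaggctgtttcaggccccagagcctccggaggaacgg
Glb1: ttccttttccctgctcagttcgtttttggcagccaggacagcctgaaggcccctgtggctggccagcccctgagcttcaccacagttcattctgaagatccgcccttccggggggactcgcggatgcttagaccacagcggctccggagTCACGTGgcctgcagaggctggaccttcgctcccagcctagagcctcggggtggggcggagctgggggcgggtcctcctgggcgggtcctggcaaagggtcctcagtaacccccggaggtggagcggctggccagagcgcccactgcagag
Lamp1: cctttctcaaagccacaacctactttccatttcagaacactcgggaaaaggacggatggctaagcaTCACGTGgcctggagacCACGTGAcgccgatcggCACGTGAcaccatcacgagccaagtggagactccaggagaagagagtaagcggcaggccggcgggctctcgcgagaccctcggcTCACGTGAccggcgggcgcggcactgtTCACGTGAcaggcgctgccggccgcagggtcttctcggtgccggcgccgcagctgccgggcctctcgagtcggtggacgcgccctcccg
Mcoln1: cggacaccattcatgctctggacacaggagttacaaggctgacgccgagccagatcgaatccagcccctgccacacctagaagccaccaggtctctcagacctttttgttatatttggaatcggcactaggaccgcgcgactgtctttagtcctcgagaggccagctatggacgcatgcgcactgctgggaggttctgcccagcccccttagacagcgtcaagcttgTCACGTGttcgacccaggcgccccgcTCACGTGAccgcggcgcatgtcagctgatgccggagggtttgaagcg

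The Lamp1 promoter held 5 such matches, with CACGTG starting at -183, -167, -150, -65 and -38 from the gene's start. Ctsd held matches at -157 and -10, Mcoln1 at -22 and 5, Gaa at -67 and Glb1 at -100. TCACGTG was found in 5 of 31 member promoters (16.1%), against 3.43% of all 27457 promoters of this length and 5.33% of the 9430 promoters of genes tested. The shorter CACGTG was found in 7 of 31 (22.6%), against 6.65% of all promoters and 9.09% of those of genes tested. Of the 7, Cd63 and Atg5 held it without TCACGTG. The members' share lay below that of 4 like lists: TCACGTG was found in 17.4% of 23 promoters of other hydrolases, 22.7% of 22 of other lysosomal membrane proteins, 25.0% of 16 of the TFEB family and nutrient sensing, and 38.5% of 13 of mannose 6-phosphate sorting. It was found in 15.4% of 13 promoters of proton pump subunits, 11.8% of 34 of other core autophagy genes and 0 of 8 of autophagy receptors. A longer form of the site, extending TCACGTG on both sides to 10 bases, was found in 0 of 31 member promoters. Its share was 0.467% of the promoters of genes tested, so 31 promoters are too few to tell the members from these. Among the like lists its share was highest in mannose 6-phosphate sorting, at 15.4%, and in other hydrolases, at 8.7%. A match describes the letters and does not show that a factor binds there.

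Treated cortex had slightly less signal for most of these genes, but no member passed the test. Of the 37, 27 had a negative log2 fold change (ethylenediamine over water) and 10 a positive one, against 51.2% negative among all genes tested. The median was -0.08 over the 37 and -0.004 over all genes. By limma, 0 members were lower and 0 higher at an adjusted p under 0.05, where 0.0% of the 11530 genes were called in either direction. At an unadjusted p under 0.05, 3 members (8.11%) were lower, against 4.97% of all genes, and 1 (2.7%) was higher, against 5.39%. The lowest adjusted p of a member was 0.329.

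On 8 members (21.6%) all 3 ethylenediamine arrays lay below all 3 water arrays, against 8.27% of all genes. They were Psap, Gaa, Gla, Glb1, Fuca1, Lamp1, Mcoln1 and Atg7. On 2 members (5.41%), Becn1 and Atg5, they lay above, against 9.2% of all genes. For Glb1, Fuca1 and Atg5 the nearest treated and water values were equal at 2 decimals. Without ethylenediamine replicate 1, 12 members (32.4%) lay below and 6 above, against 16.4% and 16.9% of all genes. Ethylenediamine replicate 1 by itself lay below the 3 water arrays on 13 members (35.1%) and above them on 7, against 27.9% of all genes in each direction. The shift of single genes was small: 0 of 37 differed 1.5-fold, and for 34 the 95% interval lay within 1.5-fold in both directions.

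**Figure D1:**
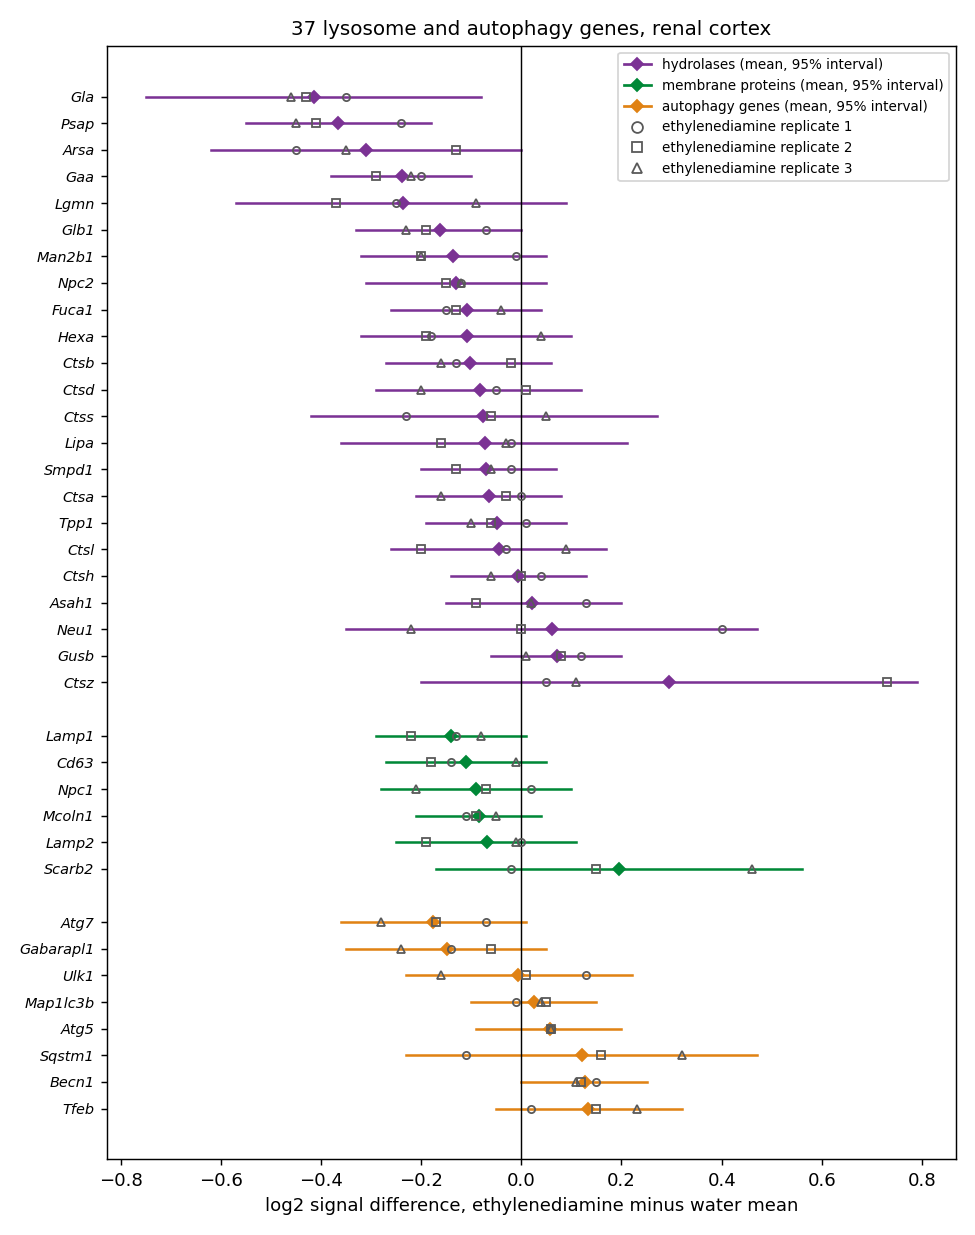
Difference in log2 signal between ethylenediamine and water for each of the 37 members, by class (diamond: mean difference, line: 95% interval of the moderated fit, open symbols: each ethylenediamine array minus the mean of 3 water arrays). Most hydrolases sit left of 0, with Gla at -0.41 and Psap at -0.37 farthest out, while 5 of 8 autophagy genes sit right of it.

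Negative values were most frequent among hydrolases and membrane proteins, and positive ones among autophagy genes. Among hydrolases, 19 of 23 had a negative log2 fold change, with a median of -0.08 and a range of -0.41 to 0.30. Among membrane proteins it was 5 of 6, with a median of -0.09 and a range of -0.14 to 0.20. Among autophagy genes it was 3 of 8, with a median of 0.04 and a range of -0.18 to 0.13. For 13 of 23 hydrolases all 3 treated animals lay below the water mean, as they did for 3 of 6 membrane proteins and 2 of 8 autophagy genes, against 22.3% of all genes. These are descriptions, since the difference between classes was not tested.

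The median difference from each gene's own water mean, taken over the 23 hydrolases, was -0.05, -0.13 and -0.10 on ethylenediamine replicates 1 to 3. On water replicates 1 to 3 it was 0.02, 0.01 and -0.01. All treated arrays were thus lower than all water arrays on this measure. The water arrays set the mean, however, which draws their medians toward 0. Ethylenediamine replicate 1, on slide 1 with the water arrays, lay nearest to them. For the membrane proteins it was -0.07, -0.13 and -0.03 on the treated arrays, against -0.0021, -0.02 and 0.01 on the water arrays. For the autophagy genes it was 0.0029, 0.05 and 0.05 on the treated arrays, against 0.03, -0.05 and 0.03 on the water arrays, so the groups overlapped.

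**Figure D2:**
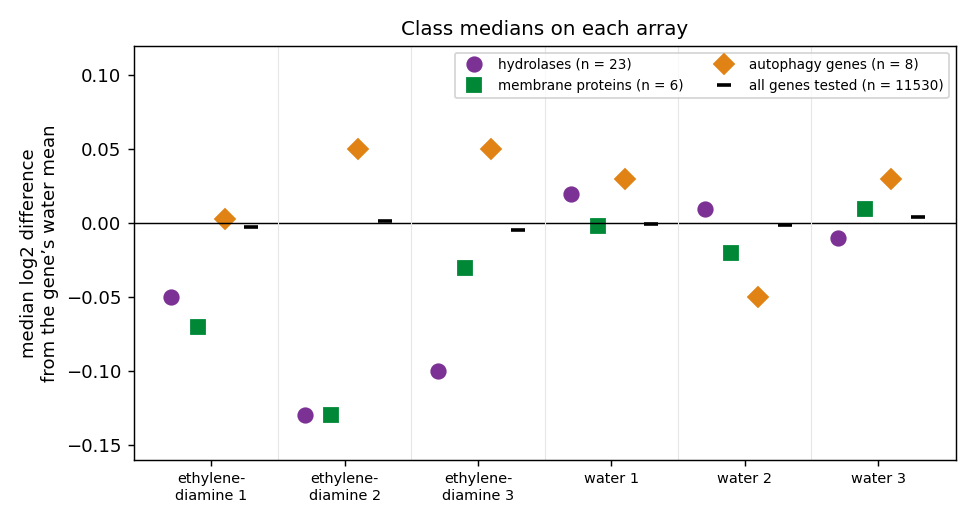
Median over the genes of a class of the log2 difference from the gene's mean on the 3 water arrays, for each of the 6 arrays; black dashes give all genes tested. Hydrolases lie between -0.13 and -0.05 on treated arrays and between -0.01 and 0.02 on water arrays, while autophagy genes overlap between the groups.

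Among the hydrolases, Psap had the smallest p of all members. Psap encodes prosaposin, which is cut into the saposins that present sphingolipids to lysosomal enzymes. Its log2 signal, given throughout relative to the 75th percentile of the array, was 4.34, 4.17 and 4.12 in ethylenediamine replicates 1 to 3, against 4.61, 4.59 and 4.54 in water replicates 1 to 3. All treated animals lay below all water animals, and replicate 1 lay closest to them. The log2 fold change was -0.37 ± 0.07 (SE, n = 3 per group), or 0.776-fold (limma adjusted p = 0.329). Within slide 1 it was -0.24, and without ethylenediamine replicate 1 it was -0.43 (limma adjusted p = 0.136).

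Gaa encodes acid alpha-glucosidase, which breaks down glycogen in lysosomes and is deficient in Pompe disease. Its log2 signal was 2.78, 2.68 and 2.76 in ethylenediamine-treated rats, against 3.03, 3.00 and 2.92 in water rats. The groups did not overlap, and each was tight, with an SD of 0.0487 in treated rats and 0.0568 in water rats. The log2 fold change was -0.24 ± 0.06 (SE, n = 3 per group), or 0.847-fold (limma adjusted p = 0.337). It was -0.20 within slide 1.

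Gla encodes alpha-galactosidase A, which removes galactose from glycolipids and is deficient in Fabry disease. Its log2 signal was -3.17, -3.25 and -3.28 in ethylenediamine-treated rats, against -2.95, -2.51 and -3.00 in water rats. The treated animals lay together below the water animals, of which replicate 2 stood well above the other two. The log2 fold change was -0.41 ± 0.14 (SE, n = 3 per group), or 0.75-fold (limma adjusted p = 0.411). Without water replicate 2 it was -0.26. The lowest signal of any member, -3.28, was that of Gla, and with normexp background correction its log2 fold change was -0.24.

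**Figure D3:**
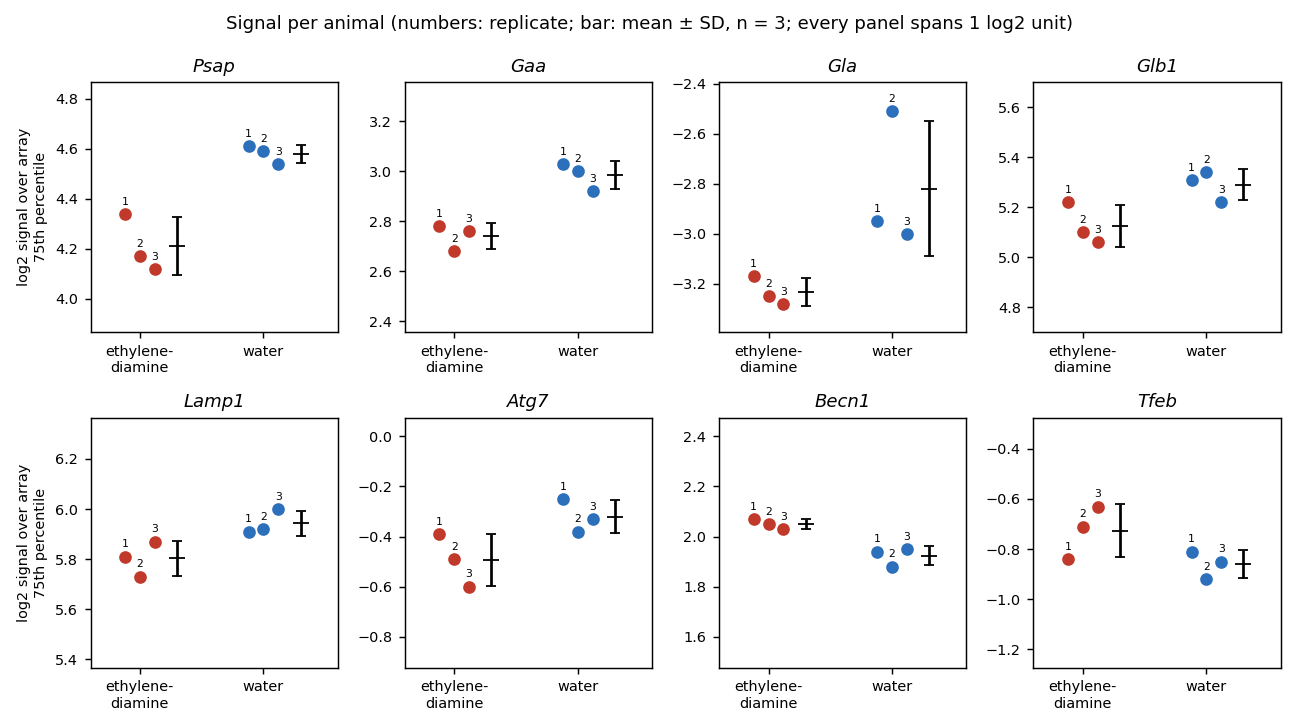
Log2 signal relative to the array's 75th percentile for 8 members in each animal (points, numbered by replicate) with mean ± SD (n = 3 per group). Psap, Gaa, Gla, Glb1, Lamp1 and Atg7 are lower in all 3 treated rats than in all 3 water rats, Becn1 is higher, and Tfeb overlaps.

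Glb1 and Arsa lay just outside an unadjusted p of 0.05. Glb1, the lysosomal beta-galactosidase, had a log2 signal of 5.22, 5.10 and 5.06 in treated rats, against 5.31, 5.34 and 5.22 in water rats. This gave a log2 fold change of -0.16 ± 0.07 (limma adjusted p = 0.482), and -0.07 within slide 1. The highest treated and the lowest water value were equal at 2 decimals, so the groups were barely separate. Arsa, the arylsulfatase that removes sulfate from sulfatides, had 0.81, 1.13 and 0.91 in treated rats, against 1.19, 1.47 and 1.12 in water rats. Ethylenediamine replicate 2 lay just above water replicate 3, and the log2 fold change was -0.31 ± 0.13 (limma adjusted p = 0.485). Without water replicate 2 it was -0.20. All 3 probes of Arsa had a negative log2 fold change, from -0.34 to -0.26. Fuca1, the alpha-fucosidase, also had barely separate groups, its highest treated and lowest water value both being 6.80. The log2 fold change of Fuca1 was -0.11 ± 0.06 (limma adjusted p = 0.593).

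The cathepsins are the main lysosomal proteases, and 6 of the 7 among the members had a log2 fold change between -0.10 and -0.01, Ctsz at 0.30 being the exception. Ctsb, a cysteine protease, had a log2 signal of 8.65, 8.76 and 8.62 in treated rats, against 8.83, 8.70 and 8.81 in water rats. Ctsd, the aspartic protease, had 6.70, 6.76 and 6.55 in treated rats, against 6.64, 6.84 and 6.77 in water rats. Their log2 fold changes were -0.10 ± 0.07 and -0.08 ± 0.08, with overlapping groups. Ctsl, another cysteine protease, had 7.0, 6.83 and 7.11 in treated rats, against 7.02, 6.96 and 7.08 in water rats, for a log2 fold change of -0.05 ± 0.09. Ctsa, which protects other hydrolases in a complex, stood at -0.06 ± 0.06 and Ctsh, an aminopeptidase, at -0.01 ± 0.05.

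Ctsz was the hydrolase with the largest positive value, and it rested on 1 animal. Its log2 signal was -1.25, -0.57 and -1.19 in treated rats, against -1.20, -1.48 and -1.21 in water rats. The log2 fold change of Ctsz was 0.30 ± 0.20 with all 6 animals, 0.08 without ethylenediamine replicate 2, and 0.05 within slide 1. Ctss, the cathepsin best known from macrophages and other antigen-presenting cells, had 2.15, 2.33 and 2.44 in treated rats, against 2.56, 2.12 and 2.48 in water rats. The groups overlapped fully, at a log2 fold change of -0.08 ± 0.14.

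Lgmn encodes legumain, the asparaginyl endopeptidase that, as known from mouse kidney, processes cathepsins in the proximal tubule. Its log2 signal was 6.24, 6.12 and 6.40 in treated rats, against 6.62, 6.23 and 6.61 in water rats. Water replicate 2 lay among the treated rats, and the log2 fold change was -0.24 ± 0.13 (limma adjusted p = 0.596). The other glycosidases and lipid-handling hydrolases gave values from -0.14 to 0.07. Man2b1 (alpha-mannosidase) stood at -0.14 ± 0.08, and at -0.01 within slide 1. Npc2 (cholesterol carrier of the lysosomal lumen) stood at -0.13 ± 0.07 and Hexa (beta-hexosaminidase alpha subunit) at -0.11 ± 0.08. Lipa (lysosomal acid lipase), Smpd1 (acid sphingomyelinase) and Tpp1 (tripeptidyl peptidase) had -0.07, -0.07 and -0.05. Asah1 (acid ceramidase), Neu1 (sialidase) and Gusb (beta-glucuronidase) had 0.02, 0.06 and 0.07. Neu1 stood at 3.19 in ethylenediamine replicate 1, against 2.58 to 2.93 on the other arrays, and its log2 fold change was -0.11 without that animal and 0.40 within slide 1, where it rests on that animal.

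Of the membrane proteins, Lamp1 and Mcoln1 had separate groups. Lamp1, an abundant glycoprotein of the lysosomal membrane, had a log2 signal of 5.81, 5.73 and 5.87 in treated rats, against 5.91, 5.92 and 6.0 in water rats. Its log2 fold change was -0.14 ± 0.06 (SE, n = 3 per group), or 0.907-fold (limma adjusted p = 0.504). Mcoln1, a calcium channel of the lysosome, had 3.81, 3.83 and 3.86 in treated rats, against 3.94, 3.89 and 3.91 in water rats. The difference was small, at -0.08 ± 0.05 (limma adjusted p = 0.607), and so was the spread, with an SD of 0.0287 in treated rats and 0.0212 in water rats.

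Lamp2, the partner of Lamp1 that is also needed for fusion with autophagosomes, had 2.73, 2.54 and 2.72 in treated rats, against 2.77, 2.68 and 2.74 in water rats. The groups overlapped, with a log2 fold change of -0.07 ± 0.07. Cd63, a tetraspanin of late endosomes, stood at -0.11 ± 0.06 and Npc1, the membrane cholesterol exporter, at -0.09 ± 0.08. Scarb2, which carries beta-glucocerebrosidase to the lysosome, was the 1 membrane member with a positive value. Its log2 signal was -1.61, -1.45 and -1.13 in treated rats, against -1.53, -1.78 and -1.48 in water rats, and its log2 fold change was 0.20 ± 0.15. That value was 0.06 without ethylenediamine replicate 3 and -0.02 within slide 1.

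The autophagy genes had values of both signs, and 1 of 8 had an unadjusted p under 0.05. Becn1, which encodes beclin 1 of the lipid kinase complex that starts the autophagosome, had a log2 signal of 2.07, 2.05 and 2.03 in treated rats, against 1.94, 1.88 and 1.95 in water rats. The groups were separate, and the log2 fold change was 0.13 ± 0.05 (SE, n = 3 per group), or 1.09-fold (limma adjusted p = 0.479). Within slide 1 it was 0.15. Its other probe gave 0.11.

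Tfeb had a log2 signal of -0.84, -0.71 and -0.63 in treated rats, against -0.81, -0.92 and -0.85 in water rats. Replicate 1 lay among the water rats, and the log2 fold change was 0.13 ± 0.07 (limma adjusted p = 0.593). Its other probe had a log2 fold change of -0.05, so the probes differed in sign. Within slide 1 the Tfeb value was 0.02. Activity of TFEB is set largely by its place in the cell, which arrays do not measure.

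Atg7, the enzyme that activates ubiquitin-like proteins of autophagy, had -0.39, -0.49 and -0.60 in treated rats, against -0.25, -0.38 and -0.33 in water rats. All treated values were below all water values, with a log2 fold change of -0.18 ± 0.07 (limma adjusted p = 0.491). Within slide 1 it was -0.07. Gabarapl1, an Atg8-family protein of the autophagosome membrane, had 7.55, 7.63 and 7.45 in treated rats, against 7.59, 7.69 and 7.80 in water rats. Treated rats differed by -0.15 ± 0.08 on the log2 scale, and both of its probes gave -0.15.

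Sqstm1, the cargo receptor p62 and also a target of NRF2, had 4.19, 4.47 and 4.62 in treated rats, against 4.40, 4.09 and 4.41 in water rats. The groups overlapped, with a log2 fold change of 0.12 ± 0.14, and its value within slide 1 was -0.11. Map1lc3b, the LC3 protein of the autophagosome membrane, had 4.76, 4.83 and 4.81 in treated rats, against 4.75, 4.76 and 4.81 in water rats. Its log2 fold change was 0.03 ± 0.05, with a 95% interval of -0.10 to 0.15. Ulk1, the kinase that starts autophagy, had 3.63, 3.51 and 3.34 in treated rats, against 3.42, 3.55 and 3.53 in water rats, for a log2 fold change of -0.01 ± 0.09. Atg5, part of the conjugation machinery, stood at 0.06 ± 0.06. Its treated values were all at -0.35, and its water values were -0.35, -0.50 and -0.37.

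Of the 37 members, 18 had more than 1 probe that passed the filter, and in 7 of these the probes differed in sign. The 7 were Ctsl, Gusb, Npc1, Tfeb, Sqstm1, Map1lc3b and Atg5. The 5 probes of Npc1 ran from -0.43 to 0.10, and the 5 of Sqstm1 from -0.07 to 0.35. The 3 of Gusb gave -0.16, -0.05 and 0.07, the brightest being the positive one. Glb1 and Man2b1 had a second probe with a more negative value than the one used, at -0.26 and -0.21. Psap, Gaa, Gla and Lamp1 each rested on 1 probe.

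**Figure D4:**
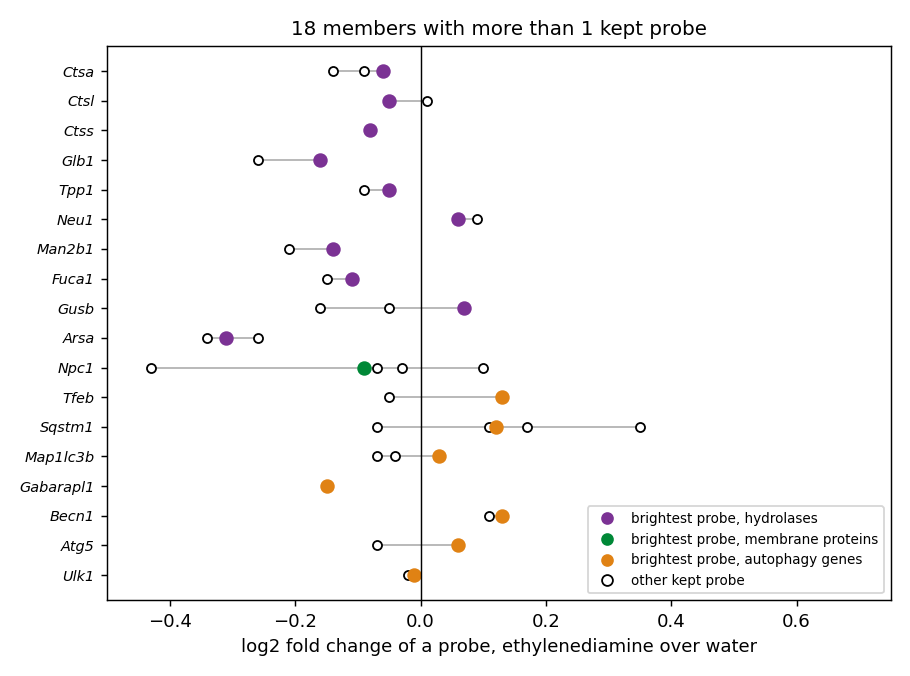
Log2 fold change (ethylenediamine over water) of every kept probe of the 18 members with more than 1, the brightest probe in colour. The probes of Arsa, Glb1 and Man2b1 all lie left of 0, while those of Npc1 span -0.43 to 0.10 and those of Sqstm1 -0.07 to 0.35.

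Members whose promoters held TCACGTG all had a negative log2 fold change (5 of 5, median -0.14), as did 18 of the 26 in the table without it (median -0.07). Over the genes tested, 293 of 503 with TCACGTG were negative, with a median of -0.02. Of the 8927 without it, 4539 were negative, with a median of -0.0029. Other lists went both ways. Of other hydrolases, 1 of 3 with TCACGTG and 11 of 16 without it were negative (medians 0.09 and -0.05). Of other lysosomal membrane proteins it was 2 of 5 with TCACGTG and 11 of 15 without (medians 0.02 and -0.04). Of mannose 6-phosphate sorting genes it was 4 of 5 and 5 of 6 (medians -0.12 and -0.06). Of proton pump subunits it was 2 of 2 and 6 of 11 (medians -0.09 and -0.0044). Of other core autophagy genes it was 3 of 4 and 13 of 25 (both medians -0.01). Of TFEB family and nutrient-sensing genes it was 2 of 4 and 5 of 12 (medians 0.0037 and 0.03). None of the 7 autophagy members in the table held TCACGTG.

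Other genes of the pathway, from lists named for this purpose, had 0 members past an adjusted p of 0.05 by limma. Among 31 other hydrolases and cofactors measured, 20 were negative and the median was -0.04. At an unadjusted p under 0.05, 2 (6.45%) were lower and 2 (6.45%) higher, against 4.97% and 5.39% of all genes. The peptidase Dpp7 stood at -0.23 ± 0.07 and the hyaluronidase Hyal1 at 0.61 ± 0.19. Hyal1 had -2.61, -2.24 and -2.50 in treated rats, against -2.90, -3.46 and -2.84 in water rats.

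The proton pump that acidifies the lysosome had 16 widely expressed subunits and partners measured. Of these, 11 were negative and the median was -0.09, with 5 below all water arrays and 2, Atp6v0b at 0.08 and Atp6v0c at 0.09, above them, against 8.27% and 9.2% of all genes. The pair above was named after its values were seen. Atp6v1h, a subunit of the pump's cytosolic part, had a log2 fold change of -0.17 ± 0.06 (limma adjusted p = 0.442). Of 12 genes of mannose 6-phosphate tagging and sorting, which send hydrolases to the lysosome, 10 were negative, with a median of -0.07. The adaptor subunit Ap1m1 stood at -0.18 ± 0.07. Of 21 other lysosomal membrane proteins, 14 were negative, with a median of -0.04 and 0 at an unadjusted p under 0.05. The cystine exporter Ctns had the smallest p among them, with a log2 fold change of -0.17 ± 0.07 (limma adjusted p = 0.494).

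The TFEB family and nutrient-sensing genes had a median of 0.01, with 9 of 21 negative. Lamtor5, part of the scaffold that holds mTORC1 on the lysosome, stood at -0.27 ± 0.09, and Tsc2, which restrains mTORC1, at 0.16 ± 0.05. The other core autophagy genes had a median of -0.01, with 18 of 32 negative. At an unadjusted p under 0.05, 2 (6.25%) were lower and 3 (9.38%) higher, against the same 4.97% and 5.39%. Rb1cc1, which forms a complex with Ulk1, stood at -0.20 ± 0.05, Atg12, a ubiquitin-like conjugation protein, at 0.19 ± 0.06, and the LC3 gene Map1lc3a at 0.20 ± 0.06. Of 11 autophagy and mitophagy receptors, 9 were negative, with a median of -0.03, and the scaffold Wdfy3 had the smallest p at -0.12 ± 0.07 (limma adjusted p = 0.616).

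**Figure D5:**
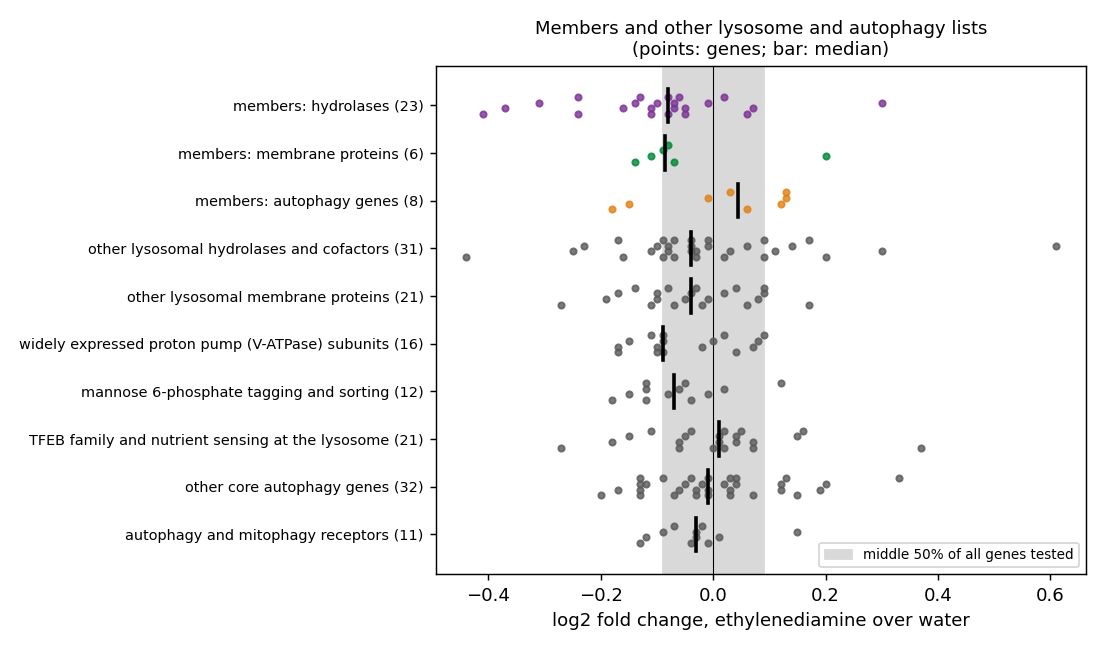
Log2 fold change (ethylenediamine over water) of each measured gene in the 3 member classes and 7 other lists, with the list median as a black bar and the middle 50% of all genes tested (-0.09 to 0.09) in grey. Hyal1 lies farthest right at 0.61.

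Markers of the cells in the cortex were set beside these values, as sums of linear signal relative to the array's 75th percentile. The sum over 14 proximal tubule markers ran from 2210 to 2250 in treated rats and from 2210 to 2310 in water rats, with a median log2 fold change of -0.02. Lrp2, the endocytic receptor megalin, had 6.44, 6.31 and 6.37 in treated rats, against 6.58, 6.55 and 6.57 in water rats, for a log2 fold change of -0.19 ± 0.06 (limma adjusted p = 0.371). Single proximal tubule markers thus differed although their sums overlapped. Of the 14, 3 (21.4%) lay below all water arrays, against 8.27% of all genes: Lrp2, Slc5a2 at -0.14 and Slc6a19 at -0.28. Above all water arrays lay 1 (7.14%), Slc22a6 at 0.02, against 9.2% of all genes. The sum over 12 macrophage and monocyte markers ran from 98.2 to 99.2 in treated rats and from 83.6 to 113 in water rats, and Csf1r stood at -0.03 ± 0.09. The macrophage markers Itgam and Cd163 did not pass the filter on dim probes.

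Among the other cell type lists, the summed signal of principal, intercalated and smooth muscle markers did not overlap between the groups, while that of the other 6 lists did. The sum ran from 17.0 to 25.1 in treated rats and from 24.7 to 30.4 in water rats over 4 distal convoluted and connecting tubule markers. All 4 of these markers were nevertheless negative, with a median log2 fold change of -0.43. Of the 4, 3 lay below all water arrays: Calb1 at -0.89, Trpv5 at -0.44 and Slc8a1 at -0.41. Slc12a3, the brightest of the 4, overlapped between the groups, at -0.35. Over 7 principal cell markers, the sum ran from 168 to 202 in treated rats and from 213 to 263 in water rats. Of these 7, only Aqp2, the brightest, lay below all water arrays, at -0.57. The others overlapped between the groups, though all 7 had a negative log2 fold change. Over 6 intercalated cell markers, the sum ran from 122 to 140 in treated rats and from 154 to 190 in water rats. Of these 6, 3 lay below all water arrays. The sum over the 5 smooth muscle markers ran from 6.66 to 7.20 in treated rats and from 4.95 to 5.54 in water rats. All 5 (100%) lay above all water arrays, against 9.2% of all genes. Over 9 markers of injured tubules, it ran from 45.0 to 61.9 in treated rats and from 34.4 to 49.9 in water rats, so the groups overlapped. Havcr1 (kidney injury molecule 1) had a log2 signal of -3.71, -2.26 and -1.95 in treated rats, against -5.22, -5.33 and -5.06 in water rats, where 2 of the 3 arrays had it clearly over background. Thick ascending limb markers summed to 282 to 353 in treated rats and 219 to 313 in water rats, and endothelial markers to 66.1 to 94.6 in treated rats and 88.6 to 90.5 in water rats. Podocyte markers summed to 31.9 to 40.4 in treated rats and 35.5 to 44.1 in water rats, and the 4 of 8 lymphocyte markers measured to 0.499 to 0.581 in treated rats and 0.41 to 0.591 in water rats. The part of these markers in the values of the lysosomal genes was not tested.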

How the data were processed

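RNA from the renal cortex of 6 rats was measured on 1-colour Agilent arrays. The deposited intensity values are background-subtracted processed signals from Agilent Feature Extraction 10.7.1.1, per the file headers, with a probe grid on rn4. Control spots (1439) and 22 outlier-flagged probes of 61537 were left out, and 0 spots were saturated. Signals were divided by the array's 75th percentile and log2 transformed. Of the 61515 probes, 28194 had a symbol through their RefSeq accession (GRCr8 table) and 33321 had none. A probe was kept when every array of either group had it well above background, and the brightest kept probe stood for its gene.

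The difference between treated and water rats was fitted by limma 3.58.1 under R 4.3.3 (4 residual degrees of freedom), with Benjamini-Hochberg adjustment over 11530 genes and a threshold of 0.05. The code was tested on simulated data. The deposited value table held linear intensity, matching the processed signal scaled per array within 2.0% for all probes, with column medians of 0.1061, 0.1104 and 0.1071 for ethylenediamine and 0.1076, 0.1052 and 0.1046 for water. It served as an alternative. Normexp with an offset of 50 used the median spot signal in place of the planned mean signal, a column the scanner files used here do not have.

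The members and lists were chosen with earlier results of these data known. All members are accounted for. Values per array are given for members with an unadjusted p under 0.05 and for a fixed set of cathepsins, membrane proteins and autophagy genes, and Glb1, Arsa, Ctsz, Atg5 and Atg7 were added after their values were seen. Of each other pathway list, up to 3 genes with the smallest p under 0.05 are named, or else the 1 with the smallest. One gene that this rule selects is not reported here. The number of arrays limits the precision.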

Additional observations from a re-analysis of the deposited data

How the results depend on the processing

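With 3 animals a group, and with the treatment comparable within a slide only through ethylenediamine replicate 1, small differences could not be resolved. Under 19 alternatives, 0 members were called, and 34 of 703 member values changed sign, in 15 of 37 members. The other 22 kept their sign in all of them, Psap, Gaa, Gla and Becn1 among them. Causes were not tested. With slide as a fixed block, and within slide 1, the values were 0.04 for Ctsh, 0.0035 for Lamp2, -0.01 for Map1lc3b, 0.02 for Npc1, -0.02 for Scarb2, -0.11 for Sqstm1, 0.01 for Tpp1 and 0.13 for Ulk1. There the median was -0.03 over all members and -0.05 over hydrolases, and 1 member, Psap at -0.24, was lower and 1, Neu1 at 0.40, higher at an unadjusted p under 0.05. Over all genes, 10 were called higher with the fixed block, and 5 higher and 1 lower within slide 1. At 2 decimals, 24 of 37 member values changed sign or moved by over 1.5 times within slide 1, and 26 when 1 animal was left out. With slide as a random block Ulk1 stood at 0.01. The mean of all kept probes gave -0.01 for Atg5, -0.05 for Gusb, -0.03 for Map1lc3b and a median of -0.01 over autophagy genes. Median scaling gave -0.01 for Asah1, -0.0028 for Map1lc3b and a median of -0.11 over all members. Array weights gave -0.0012 for Asah1, and normexp gave -4.9e-05 for Map1lc3b. At an unadjusted p under 0.05, the members lower numbered 5 with array weights, quantile scaling or a filter on all 6 arrays, and 6 with an intensity trend, mean of probes or median scaling. The members higher numbered 0 with array weights, mean of probes, median scaling, no filter, normexp, quantile scaling or the random slide block. The intensity trend called 1 gene lower. The replicate numbers did not pair the animals (correlations of -0.003, 0.022 and -0.008), and with replicate number as a block 0 genes were called, while 5 members had a negative value and 0 a positive one at an unadjusted p under 0.05. Leaving out 1 animal at a time gave -0.03 to 0.08 for Asah1, -0.03 to 0.02 for Ctsh, -0.11 to 0.03 for Ctsl, -0.21 to 0.01 for Ctss, -0.17 to 0.03 for Lipa, -0.11 to 0.2 for Neu1 and -0.07 to 0.07 for Ulk1. At an unadjusted p under 0.05 it gave 3 to 6 members lower and 0 to 1 higher, with 6 lower without ethylenediamine replicate 1, and 0 to 1 genes called higher. The counts of members at an unadjusted p under 0.05 under these alternatives stand without the share of all genes in the same setting. They are therefore descriptions of the settings and not a result about the members. In alternatives chosen after seeing the data, 12 members lay below all water arrays and 6 above without ethylenediamine replicate 1, and 13 below and 7 above for that animal within slide 1.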
